A study of Mus musculus with 17 samples.

Results

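Expression of 10 genes that mark germinal centre B cells, or act in their signalling and contacts, was followed through B cell activation in wild-type (WT) and p52 knock-in (p52ki) mice. The genes were Gcsam, Rgs13, Gna13, Nuggc, Klhl6, Lmo2, Gcnt3, Basp1, Efnb1 and Plxnb2, taken by symbol from the 55536 genes of a count table. All 10 were among the 15352 genes tested after a filter on low counts, and Gcnt3 passed it only through its counts in WT germinal centre cells. RNA had been sequenced from sorted spleen B cells, in 17 libraries. WT mice gave 3 libraries of naive B cells, 3 of activated B cells and 3 of germinal centre (GC) B cells. The p52ki mice gave 3 libraries of naive, 3 of activated and 2 of GC B cells. p52 is an NF-kB subunit that is cut from the product of Nfkb2, and the series title names a complex of p52 and ETS1, an ETS-family transcription factor, as its subject. The labels give no strain, age, immunisation, sorting gate or description of the knock-in allele, and do not say whether replicates were separate animals. The p-values therefore measure the spread between these libraries, which may be partly technical.

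A germinal centre forms in a follicle, where B cells that have met antigen proliferate, diversify their antibodies by mutation and compete for T cell help. B cells are held there by the receptor S1PR2, which signals through the G protein subunit encoded by Gna13 to RhoA and opposes chemokine-driven migration, while RGS13 shortens chemokine receptor signalling by speeding GTP hydrolysis on G alpha subunits. GCSAM is an adaptor that links the B cell receptor to SYK and RhoA. Ephrin-B1 and plexin-B2 are surface proteins through which GC B cells meet follicular helper T cells.

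Column totals ran from 4067281 to 10036347 counts. WT GC replicate 3 and p52ki GC replicates 2 and 5 had 11232, 11390 and 13044 detected genes, against 16745 to 19672 in the other libraries, so both p52ki GC libraries were of this sparse kind and only WT GC replicate 3 matched them. The naive and GC libraries carried the markers of their labels, and no list of markers for activated B cells was examined. All 7 B cell markers were detected in each group. A set of 6 GC markers including Bcl6 summed to 1396 to 1920 counts scaled to a column total of 1000000 (CPM) in WT GC and 620 to 928 CPM in p52ki GC libraries, against 56.0 to 110 CPM in naive and activated libraries. T cell markers summed to at most 40.4 CPM in any library, natural killer cell markers to at most 51.0 CPM and myeloid and dendritic cell markers to at most 74.3 CPM. Erythroid and platelet markers summed to 165 to 175 CPM in p52ki GC and 11.4 to 129 CPM in WT GC libraries, and stroma and endothelium markers to 51.2 to 107 CPM and 13.6 to 53.9 CPM. Plasma cell markers summed to 98.3 to 133 CPM in naive, 1489 to 7131 CPM in activated and 2183 to 5287 CPM in GC libraries. The part of such cells in the differences was not tested. Library numbers in the sample titles run lower in WT than in p52ki, so a batch that follows them and genotype cannot be told apart.

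On GRCm38 with GENCODE M21, Gcsam lies at chr16:45610380-45622867 (+), Rgs13 at chr1:144138654-144177372 (−), Gna13 at chr11:109362831-109401369 (+), Nuggc at chr14:65598546-65648531 (+) and Klhl6 at chr16:19946496-19983037 (−). Lmo2 lies at chr2:103957986-103981878 (+), Gcnt3 at chr9:70031496-70038088 (−), Basp1 at chr15:25363277-25413764 (−), Efnb1 at chrX:99136130-99148991 (+) and Plxnb2 at chr15:89155549-89180788 (−). All are protein-coding genes, and counts cover their exons. The start of Gna13 overlaps the antisense gene Gm11696, which had 10.1 to 48.9 CPM, and Lmo2 overlaps 4931422A03Rik on the opposite strand, which had 2.23 to 7.02 CPM. Whether strand was used in counting is not given in the sources used here, so reads of these overlapping genes cannot be told apart.

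Promoters are shown for 3 of the genes, since the study concerns an NF-kB subunit and an ETS factor. Rgs13 had the highest level per kilobase in GC cells. Klhl6 was called between genotypes in GC cells, and Gcsam was not called there. Lmo2, the other gene called there, had no entry among the promoters used, and neither had Nuggc and Gcnt3. Each is the 250 bases before a RefSeq start on GRCm38.p6, 5′ to 3′ on the gene's strand, with matches to a kB motif (GGGNNNNNCC) or an ETS core (GGAAGT) on either strand in capitals.
Gcsam, chr16:45610190-45610439 (+): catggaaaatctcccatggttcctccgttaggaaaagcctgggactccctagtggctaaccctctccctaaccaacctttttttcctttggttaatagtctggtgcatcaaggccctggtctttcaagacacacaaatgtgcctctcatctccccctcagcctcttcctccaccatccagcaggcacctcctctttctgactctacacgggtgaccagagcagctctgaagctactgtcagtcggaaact
Rgs13, chr1:144177373-144177622 (−): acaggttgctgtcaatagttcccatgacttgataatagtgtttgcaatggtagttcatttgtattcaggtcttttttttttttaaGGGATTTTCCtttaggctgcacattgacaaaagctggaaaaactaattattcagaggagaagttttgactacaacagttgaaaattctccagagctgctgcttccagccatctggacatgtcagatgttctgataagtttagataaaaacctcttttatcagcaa
Klhl6, chr16:19983050-19983299 (−): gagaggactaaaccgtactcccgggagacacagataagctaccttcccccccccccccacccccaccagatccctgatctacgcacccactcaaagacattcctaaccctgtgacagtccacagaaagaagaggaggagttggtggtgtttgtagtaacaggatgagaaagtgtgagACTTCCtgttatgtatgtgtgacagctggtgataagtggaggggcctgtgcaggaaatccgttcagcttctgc
The Rgs13 window held a kB match that begins 165 bases before the start, the Klhl6 window an ETS core on the other strand that begins 73 bases before it, and the Gcsam window neither. The kB motif as searched is common: 45.8% of 32851 RefSeq promoters of this length held it, and 19.7% held the ETS core. Of 8 promoters found for 7 of the genes (2 for Plxnb2), 6 held the kB motif and 2 the ETS core. An E-box (CAGCTG; 13.0% of promoters) was found in 1 and a TATA box (TATAAA; 12.4%) in 0 of the 8. A match describes letters only, and the motifs can overlap one another.

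Between activated and GC B cells of WT mice, 8 of the 9 genes other than Gcnt3 were higher and none lower. The exception was Lmo2. Gcnt3 is left out of these counts and medians, because it was tested only through its WT GC counts and so had to be higher there. Of all genes tested, 5.8% were called higher and 7.75% lower in this comparison, with a call defined as an adjusted p under 0.05 in the quasi-likelihood test of edgeR, adjusted by the Benjamini-Hochberg method over all genes tested. The median difference of the 9 genes was 3.15 on the log2 scale, beside −0.13 over all genes tested. Against naive cells, 7 of the 9 genes were higher in WT GC cells and Lmo2 was lower, where 8.45% and 7.47% of genes tested were called higher and lower. Leaving out WT activated replicate 4 took the count of calls against activated cells from 8 to 5, and that over all genes from 2081 to 1305. Without any other library of either group the count among the 9 genes was at least 6. In bulk RNA, fewer cells of a type and less RNA per cell cannot be told apart.

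In p52ki mice 6 genes were higher in GC than in activated cells, namely Gcsam, Rgs13, Nuggc, Basp1, Efnb1 and Lmo2, and none was lower, where 6.34% of genes tested were called higher and 19.3% lower. The median over the 9 of the 10 genes with a count in either group was 2.73, beside −0.41 over all genes tested. Against naive cells 5 of these were higher in p52ki GC cells (8.68% of genes tested), all but Lmo2. Gna13, Klhl6 and Plxnb2, which were called higher in WT GC cells, had no call in p52ki. The difference of the GC change between genotypes passed the test for Klhl6 (lower in p52ki; 4.97% of genes tested were called lower) and for Lmo2 (higher; 0.977%). For the other 7 genes tested it had an adjusted p of 0.0914 to 0.985. Leaving out 1 library gave 0 to 3 calls, with 0 without WT activated replicate 1 or p52ki activated replicate 2 or 3. It was called for Gna13 without WT GC replicate 3 (−1.07, adjusted p = 0.0358) or p52ki GC replicate 2 (−1.53, adjusted p = 0.0176), and for Plxnb2 without p52ki GC replicate 5 (−4.90, adjusted p = 0.0149).

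**Figure D1:**
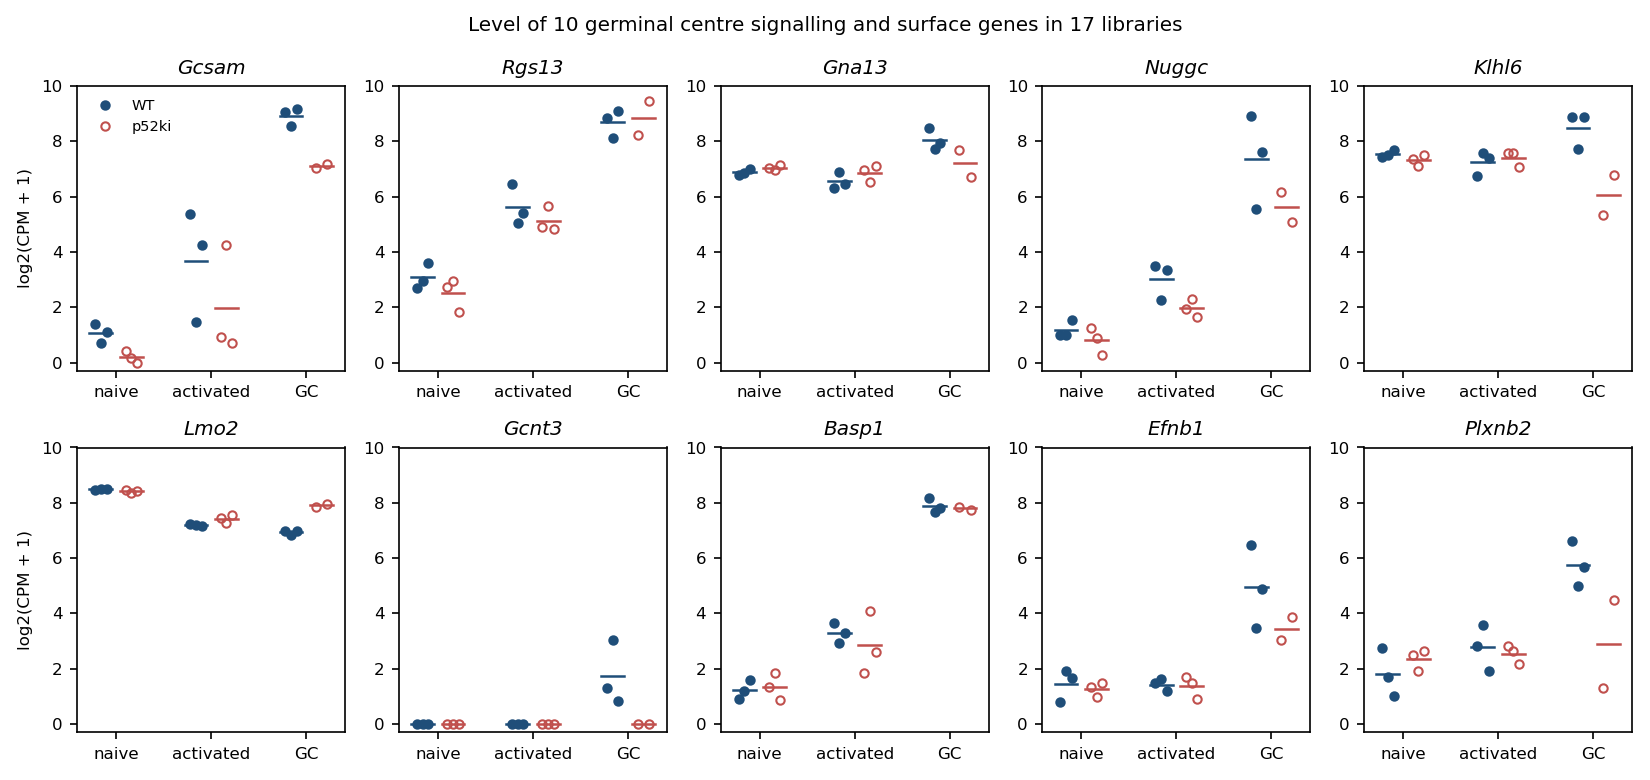
Level of each gene in the 17 libraries, as log2(CPM + 1), by stage and genotype (filled, WT; open, p52ki). Each point is a library and each bar the group's mean; Gcsam, Rgs13, Nuggc and Basp1 climb with stage, Lmo2 is highest in naive cells, and Gcnt3 has counts only in WT GC libraries.

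Gcsam, the adaptor of B cell receptor signalling, was near its floor in naive cells and abundant in GC cells. WT naive replicates 1, 3 and 4 had 1.602, 0.638 and 1.157 CPM, and the activated libraries 39.9, 1.75 and 18.0 CPM. It reached 535, 376 and 571 CPM in the GC libraries. The 3 WT stages did not overlap, and activated replicate 3 sat close to naive cells while replicates 1 and 4 were well above them. In WT GC cells Gcsam was 4.54 higher on the log2 scale than in activated cells (SE 1.12, adjusted p = 0.0136, edgeR), a call lost without WT activated replicate 4 (4.45, adjusted p = 0.0638).

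In p52ki naive replicates 2, 3 and 5 Gcsam had 3, 1 and 0 counts. It was at 0.897, 18.1 and 0.623 CPM in p52ki activated libraries, of which replicate 3 stood with the high WT libraries, and at 131 and 146 CPM in the p52ki GC replicates 2 and 5. Both p52ki GC libraries thus lay below all 3 WT GC libraries. The genotype difference in GC cells was −1.81 (SE 1.15, adjusted p = 0.290, edgeR) and is not called. It was −1.39 (adjusted p = 0.595) against WT GC replicate 3, the library of like sparseness. In that comparison, here and for the genes below, the WT GC group is 1 library, which is assumed to vary like the other groups. Within p52ki, GC cells were 4.42 above activated cells (SE 1.16, adjusted p = 0.0138).

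Rgs13 had the highest level per kilobase of exon among the 10 genes in GC cells of both genotypes. It had 5.55, 6.64 and 11.1 CPM in WT naive cells, 87.6, 31.7 and 41.7 in activated cells and 459, 276 and 548 in GC cells. In p52ki it had 5.59, 6.82 and 2.54 CPM in naive, 29.1, 49.6 and 27.4 in activated and 301 and 707 in GC libraries. Stages did not overlap in either genotype, and at every stage the genotypes did. WT activated cells were 2.91 above naive cells on the log2 scale (SE 0.547, adjusted p = 0.0338, edgeR) and GC cells 2.94 above activated cells (SE 0.534, adjusted p = 0.00182).

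The p52ki changes in Rgs13 were 2.85 (SE 0.552, adjusted p = 0.0598), not called, and 3.92 (SE 0.581, adjusted p = 0.000460). The difference between genotypes in GC cells was 0.28 (SE 0.550, adjusted p = 0.764). The WT call between naive and activated cells was lost with the replicate number as a block (2.81, adjusted p = 0.0903). It was also lost without WT naive replicate 1 (adjusted p = 0.244), 3 (0.223) or 4 (0.0986), or without WT activated replicate 1 (0.123) or 4 (0.0726). Gcsam and Rgs13 were compared within each library by the ratio of their counts. This ratio was 1.16, 1.36 and 1.04 in WT GC libraries and 0.434 and 0.206 in p52ki GC libraries, so that the groups did not overlap, and WT GC replicate 3 was not among the low values.

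Gna13, the G protein subunit downstream of S1PR2, was present at every stage. Its level was 109, 116 and 128 CPM in WT naive cells, 78.1, 118 and 86.6 in activated cells and 353, 212 and 247 in GC cells. The WT GC libraries were all above the other WT libraries, by 1.51 on the log2 scale over activated cells (SE 0.240, adjusted p = 0.000667, edgeR). In p52ki it was 129, 123 and 139 CPM in naive, 123, 91.2 and 137 in activated and 207 and 104 in GC libraries. The p52ki GC and activated libraries overlapped, since GC replicate 5 was low (0.47, SE 0.260, adjusted p = 0.191). The call is made without that replicate (0.82, adjusted p = 0.0323), and without replicate 2 the difference was −0.0193 (adjusted p = 0.971), the opposite sign.

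In GC cells the genotype difference in Gna13 was −0.80 (SE 0.269, adjusted p = 0.0554), not called. Both p52ki GC libraries were below all WT GC libraries, the nearest being at 207 and 212 CPM. It was called without WT GC replicate 3 (−0.83, adjusted p = 0.0268). Against WT GC replicate 3 alone, the library of like sparseness, the difference was −0.42. With a covariate for how many genes a library detected it was −0.57 (adjusted p = 0.177). Without p52ki GC replicate 2 it was −1.29, and without p52ki GC replicate 5 it was −0.45.

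Among the partners of Gna13, 1 of 9 tested genes of G12/13 signalling other than Gna13 was higher in WT GC than activated cells and 0 were lower, with a list median of 0.02. That gene was S1pr2, the receptor that confines GC B cells, at 200 ± 90.0 CPM (SD, n = 3) in GC against 4.62 ± 2.15 CPM (n = 3) in activated cells, a difference of 5.38 (SE 0.653, adjusted p = 0.000105, edgeR). Between genotypes in GC cells 1 of the 9 was lower, Ric8a, which encodes a chaperone of G alpha subunits, at 11.7 ± 12.04 CPM (n = 2) in p52ki and 70.7 ± 5.88 CPM (n = 3) in WT (−2.50, SE 0.517, adjusted p = 0.00630). Of 19 heterotrimeric G protein genes 5 were higher and 0 lower in WT GC cells, with a median of 0.62 beside −0.13 over all genes. They included Gnb1 (0.99, adjusted p = 0.0102), Gnb4 (2.55, adjusted p = 0.0175) and the Gs subunit Gnas (0.73, adjusted p = 0.0182). Between genotypes in GC cells 2 of the 19 were higher and 2 lower, where 3.75% and 12.2% of genes tested were called higher and lower. Gna11 was at 60.3 ± 64.3 CPM (n = 2) in p52ki and 17.5 ± 1.16 CPM (n = 3) in WT (1.75, adjusted p = 0.0355), the p52ki libraries being far apart. The lower ones were Gnai3, the inhibitory subunit, at −1.40 (adjusted p = 0.0406) and Gna15 (adjusted p = 0.000515). Gna15 had no count in the sparse p52ki GC libraries and 5.59 ± 3.30 CPM (n = 3) in WT, at least 19.9-fold lower than that mean in p52ki. Of 11 RGS genes other than Rgs13, 1 was higher in WT GC cells (Rgs9, 6.79, adjusted p = 0.0391, from 0.0390 to 6.21 CPM) and none differed between genotypes in GC cells.

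Nuggc encodes a nuclear GTPase found in GC B cells. Its level was 0.986, 1.02 and 1.93 CPM for WT naive, 10.1, 3.86 and 9.07 in activated and 481, 46.3 and 195 in GC libraries. WT GC replicate 1 had over 10 times the level of replicate 3, yet every GC library was above every activated library. The stage difference was 4.90 (SE 0.784, adjusted p = 0.000752, edgeR). In p52ki it was at 1.40, 0.853 and 0.203 CPM in naive, 2.79, 3.95 and 2.12 in activated and 71.1 and 33.1 in GC libraries, a GC change of 4.17 (SE 0.801, adjusted p = 0.00265).

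The genotype difference of Nuggc in GC cells was −2.20 (SE 0.807, adjusted p = 0.0745), and the libraries overlapped through WT GC replicate 3. Without that library the difference was called (−2.57, adjusted p = 0.00846). Against that library alone it was 0.20 (adjusted p = 1.00), the opposite sign.

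Klhl6 encodes a Kelch-like protein that brings substrates to the CUL3 ubiquitin ligase and is needed for germinal centres to form in mice. Its level was 171, 182 and 203 CPM in WT naive, 106, 190 and 169 in activated and 471, 208 and 472 in GC libraries. The WT GC libraries were above all other WT libraries, with replicate 3 only just so. GC cells were 1.32 above activated cells on the log2 scale (SE 0.367, adjusted p = 0.0265, edgeR). That call was lost without WT activated replicate 1 (adjusted p = 0.0758), 3 (0.0593) or 4 (0.0637) and without WT GC replicate 1 (0.0733) or 4 (0.101).

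In p52ki Klhl6 was at 165, 135 and 182 CPM in naive, 188, 189 and 134 in activated and 39.6 and 108 in GC libraries. The p52ki GC libraries were below every other p52ki library and below all WT libraries except activated replicate 1. Within p52ki the GC change was −1.10 (SE 0.420, adjusted p = 0.0665), not called, and −2.12 without p52ki GC replicate 5 (adjusted p = 0.00417). It took the opposite sign, 0.10 (adjusted p = 0.891), in a fit with a covariate for how many genes a library detected.

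Klhl6 was lower in p52ki than in WT GC cells, with a difference of −2.33 (SE 0.444, adjusted p = 0.00378). It was called with each GC library left out in turn, between −1.75 without p52ki GC replicate 2 (adjusted p = 0.0207) and −3.35 without p52ki GC replicate 5 (adjusted p = 0.000238). Against WT GC replicate 3 alone it was −1.41 (adjusted p = 0.0384), and with the covariate for detected genes −1.60 (adjusted p = 0.00287). It was not called by limma voom with quality weights (−2.50, adjusted p = 0.0920), which called 15 genes in all. Nor was it called in a fit of the 5 GC libraries alone (−2.22, adjusted p = 0.590), which called no gene. The change from activated to GC cells differed between genotypes by −2.41 (SE 0.560, adjusted p = 0.0228). That call was lost by limma voom (adjusted p = 0.121), with the groups compared alone (0.147) and with the replicate number as a block (0.0897). It was also lost without WT activated replicate 1 (adjusted p = 0.0557) or without p52ki activated replicate 2 (0.0519) or 3 (0.0508).

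Kelch-like genes were also counted as a chosen list with Cul3 and Rbx1, in which no other gene was called higher between these groups. Of 23 tested besides Klhl6, 0 were higher and 2 lower in WT GC than activated cells, Klhl25 (−3.55, adjusted p = 0.00616) and Klhl9 (−2.12, adjusted p = 0.0284), with a list median of −0.49. Between genotypes in GC cells 0 were higher and 6 lower, where 12.2% of genes tested were called lower, with a list median of −0.71 beside −0.32 over all genes. The smallest p was that of Klhl5, at 3.95 ± 0.675 CPM (n = 2) in p52ki and 40.6 ± 11.5 CPM (n = 3) in WT (−3.34, SE 0.401, adjusted p = 0.000106). Klhl28 (−3.10, adjusted p = 0.0401) and Klhl12 (−3.88, adjusted p = 0.0466) were the next by p.

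Lmo2 encodes a LIM-only protein that bridges basic helix-loop-helix and GATA-type factors, and its protein is used as a marker of human GC B cells. In these libraries it went against that label, being highest in naive cells. WT naive libraries had 352, 357 and 363 CPM, activated libraries 151, 144 and 141 and GC libraries 126, 113 and 126, and the SD within a stage was 4.64 to 7.44 CPM. It fell by 1.22 on the log2 scale between WT naive and activated cells (SE 0.158, adjusted p = 0.00307, edgeR). The step from activated to GC cells was −0.28 (SE 0.156, adjusted p = 0.282), though the 3 GC libraries were below the 3 activated ones, and DESeq2 called it (−0.36, adjusted p = 0.00696). Below naive cells the WT GC difference was −1.49 (SE 0.159, adjusted p = 1.70e-05).

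In p52ki Lmo2 was at 352, 329 and 346 CPM in naive, 174, 153 and 186 in activated and 229 and 250 in GC libraries. GC cells thus stood between naive and activated cells, 0.57 above the latter (SE 0.172, adjusted p = 0.0254), and that call was lost without p52ki GC replicate 5 (0.42, adjusted p = 0.132). The step from naive to activated cells was −0.99 (SE 0.157, adjusted p = 0.0230). It was lost with the replicate block (−0.995, adjusted p = 0.112) and without any of the 6 libraries in turn (adjusted p of 0.0624 without p52ki activated replicate 5 to 0.146 without p52ki activated replicate 3).

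Both p52ki GC libraries had more Lmo2 than any WT GC or activated library. The genotype difference in GC cells was 1.00 (SE 0.172, adjusted p = 0.00184), and between 0.84 and 1.12 with each GC library left out. Against WT GC replicate 3 alone it was 1.13 (adjusted p = 0.00291). It was not called by limma voom with quality weights (0.97, adjusted p = 0.212) or with GC libraries alone (1.09, adjusted p = 0.590). The change from activated to GC cells differed between genotypes by 0.85 (SE 0.232, adjusted p = 0.0444). It was not called by limma voom (adjusted p = 0.305), with the groups compared alone (0.217) or with the replicate block (0.139). With 1 library left out the call held only without WT activated replicate 3, WT GC replicate 3 or p52ki GC replicate 2; without any other library of the comparison its adjusted p was 0.0512 (WT GC replicate 4) to 0.0817 (WT activated replicate 4).

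Markers of naive follicular B cells were also higher in p52ki than in WT GC cells. Their summed level was 492 to 679 CPM in WT GC and 1382 to 1401 CPM in p52ki GC libraries, against 7914 to 9210 CPM in naive libraries, and 5 of 6 were higher in p52ki than in WT GC cells. None of the 6 was at 0 in any group. From p52ki activated to p52ki GC cells, where Lmo2 was higher, 5 of the 6 were lower and 1 higher, and their sum went from between 3711 and 4107 CPM to between 1382 and 1401 CPM. Fcer2a, which encodes CD23, was at 304, 413 and 360 CPM in WT GC and 644 and 709 CPM in p52ki GC libraries. In p52ki activated libraries Fcer2a was at 453, 452 and 453 CPM, below both p52ki GC libraries, as Lmo2 was. Markers of marginal zone B cells also had a higher sum, at 502 to 596 CPM in p52ki GC and 232 to 317 CPM in WT GC libraries. Of these 6 markers, 2 were called higher and 1 lower in p52ki than in WT GC cells. The part of naive follicular or marginal zone cells in the Lmo2 difference was not tested. Among 13 tested genes of the LMO2 complex other than Lmo2, 2 were higher and 0 lower in p52ki than in WT GC cells, where 3.75% of genes tested were called higher, with a list median of 0.40. These were Id2, an inhibitor of basic helix-loop-helix factors, at 143 ± 17.9 CPM (n = 2) in p52ki and 49.7 ± 15.5 CPM (n = 3) in WT (1.54, SE 0.421, adjusted p = 0.0238), and Lyl1, such a factor itself (1.65, SE 0.458, adjusted p = 0.0254). In WT, Ssbp3, a partner of the LDB1 bridge, was 2.41 higher in GC than activated cells (SE 0.322, adjusted p = 0.000197), the only 1 of the 13 to be called.

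Within a library the count of Klhl6 per count of Lmo2 was 0.485, 0.510 and 0.559 in WT naive and 0.469, 0.412 and 0.526 in p52ki naive cells. It was 0.702 to 1.32 over the 6 activated libraries, in which the genotypes overlapped. In GC cells it was 3.73, 1.84 and 3.74 in WT and 0.173 and 0.432 in p52ki. The ratio was thus higher at each later stage for every WT replicate number, whereas the p52ki GC libraries were within or below the range of naive cells and did not overlap with WT GC libraries. The ratio of 2 genes in a library does not depend on the library's total. These 2 genes were the ones called between genotypes in GC cells, in opposite directions and each without overlap of libraries. Their ratio therefore had to separate the GC libraries by genotype, and it adds no support to those calls.

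**Figure D2:**
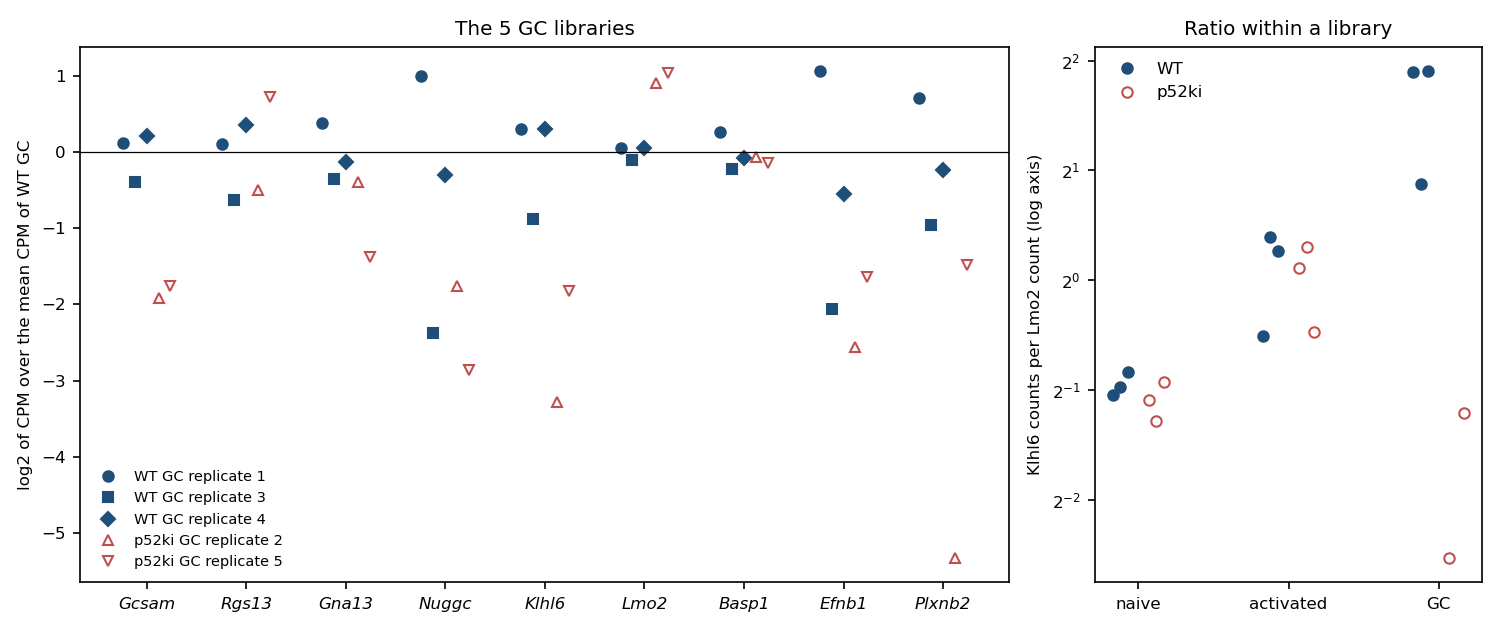
Left, CPM of 9 genes in the 5 GC libraries as log2 of the ratio to the mean of the 3 WT GC libraries (filled, WT; open, p52ki). Right, Klhl6 counts per Lmo2 count by stage on a log axis. WT GC replicate 3 lies near the p52ki libraries for Nuggc and Efnb1, whereas both p52ki libraries lie apart from it for Gcsam, Klhl6 and Lmo2.

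Basp1, a myristoylated membrane protein of the GAP43 and MARCKS type that also acts in the nucleus as a corepressor, showed no genotype difference beyond its spread in GC cells. Its level was 0.863, 1.28 and 2.06 CPM for WT naive, 11.8, 6.66 and 8.72 in activated and 287, 204 and 226 in GC libraries. In p52ki it was at 1.51, 2.56 and 0.812 CPM in naive, 2.59, 15.9 and 5.11 in activated and 229 and 215 in GC libraries. The stages did not overlap in either genotype, though the p52ki naive and activated values nearly met, at 2.56 and 2.59 CPM. The p52ki change between those stages was 2.32 (SE 0.606, adjusted p = 0.282, edgeR), not called. The p52ki GC values fell inside the WT range. The GC change was 4.68 in WT (SE 0.617, adjusted p = 0.000194, edgeR) and 4.85 in p52ki (SE 0.642, adjusted p = 0.000195). The genotype difference in GC cells was −0.08 (SE 0.587, adjusted p = 0.946), and it took the opposite sign under 4 alternatives, at up to 0.18, and without WT GC replicate 1. Of its relatives, Marcks was lower in WT GC than activated cells (−3.29, adjusted p = 0.000892) and Marcksl1 higher (1.66, adjusted p = 0.00820). Marcks was higher in p52ki than in WT GC cells (2.88, SE 0.562, adjusted p = 0.00441), at 128 ± 121 CPM (n = 2) against 16.8 ± 10.4 CPM (n = 3), the p52ki libraries being far apart.

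Efnb1 encodes ephrin-B1, a ligand for Eph receptors on T cells. It was at 0.739 to 2.81 CPM in all 12 naive and activated libraries and at 87.9, 10.1 and 28.7 CPM in WT GC libraries. The WT GC change was 4.58 (SE 0.788, adjusted p = 0.00123, edgeR). In the p52ki GC libraries it was at 7.13 and 13.6 CPM, a change of 2.73 over activated cells (SE 0.778, adjusted p = 0.0204), lost without p52ki activated replicate 5 (2.42, adjusted p = 0.0694) or p52ki GC replicate 5 (2.07, adjusted p = 0.0863). WT GC replicate 3 lay between the p52ki libraries. The genotype difference was −1.95 (SE 0.808, adjusted p = 0.107). It was called without that library (−2.30, adjusted p = 0.0157) and was 0.11 (adjusted p = 1.00), the opposite sign, against that library alone. Of 19 other ephrin and Eph receptor genes 1 was tested and it was not called.

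Plxnb2 encodes plexin-B2, a receptor for class 4 semaphorins. Its level was 5.67, 2.30 and 1.03 CPM for WT naive, 6.12, 11.1 and 2.79 in activated and 97.0, 30.6 and 50.3 in GC libraries. The WT GC change was 3.15 (SE 0.851, adjusted p = 0.0228, edgeR), a call lost without WT activated replicate 1 (adjusted p = 0.0620) or 4 (0.0983) or WT GC replicate 1 (0.0703). In p52ki it had 2.80 to 5.28 CPM in naive and 3.49 to 6.08 CPM in activated libraries. Its GC values in p52ki replicates 2 and 5 were far apart, at 1.48 and 21.3 CPM, and both were below the WT GC range. The genotype difference in GC cells was −2.27 (SE 0.958, adjusted p = 0.112). It was called without p52ki GC replicate 5 (−5.37, adjusted p = 0.00452), when a library with 6 counts of the gene is the only p52ki GC library. The p52ki change over activated cells was 1.35 (SE 0.877, adjusted p = 0.270), and called without p52ki GC replicate 2 (2.24, adjusted p = 0.0460). Without p52ki GC replicate 5 it was −1.74 (adjusted p = 0.208), the opposite sign. Of 12 other plexin, semaphorin and neuropilin genes tested, 0 were higher and 5 lower in WT GC than activated cells, with a median of −2.32. They included Sema4b (−2.43, adjusted p = 0.0118), Plxnd1 (−4.72, adjusted p = 0.00336) and Nrp2 (−6.85, adjusted p = 0.00171). Between genotypes in GC cells Sema5a alone of these was called, at 13.7 ± 19.2 CPM (n = 2) in p52ki and 0.716 ± 0.721 CPM (n = 3) in WT (4.11, adjusted p = 0.0426), the p52ki libraries being far apart.

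Gcnt3 encodes an enzyme that branches O-linked glycans. It had no count in any naive, activated or p52ki GC library, and 11, 36 and 8 counts (1.44, 7.31 and 0.805 CPM) in the WT GC libraries. The sparse WT GC replicate 3 had the most. Against 3 counts summed over the activated group, WT GC cells were at least 24.8-fold higher. This is a description without a test, since the gene was among those tested only because of these counts, and it rests mostly on replicate 3. In p52ki GC cells the absence of counts allows up to 0.281 CPM, which is at least 11.4-fold below the WT GC mean. Such limits cover counting error only, since reads carried no molecular identifiers.

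Among 15 tested enzymes that build O-glycans or the epitope seen by the GC antibody GL7, other than Gcnt3, 1 was higher and 3 lower in WT GC than activated cells, with a median of −0.07. Those lower were St3gal1 (−2.78, adjusted p = 0.000198), B3gnt5 (−3.09, adjusted p = 0.00233) and Cmah (−1.04, adjusted p = 0.00694), the last of which makes a form of sialic acid that GL7 does not recognise. Between genotypes in GC cells 2 were higher and 4 lower, where 3.75% and 12.2% of genes tested were called higher and lower. Galnt1, which starts O-glycans, was lower (−1.43, adjusted p = 0.0207, edgeR). St3gal2 and C1galt1c1 had no count in the 2 p52ki GC libraries, which were both sparse. In WT GC cells they were at 9.33 ± 7.66 and 8.56 ± 7.42 CPM (n = 3), an SD near the mean. Against these means p52ki was at least 33.3-fold and 30.5-fold lower (adjusted p = 0.00228 and 0.0105, edgeR).

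**Figure D3:**
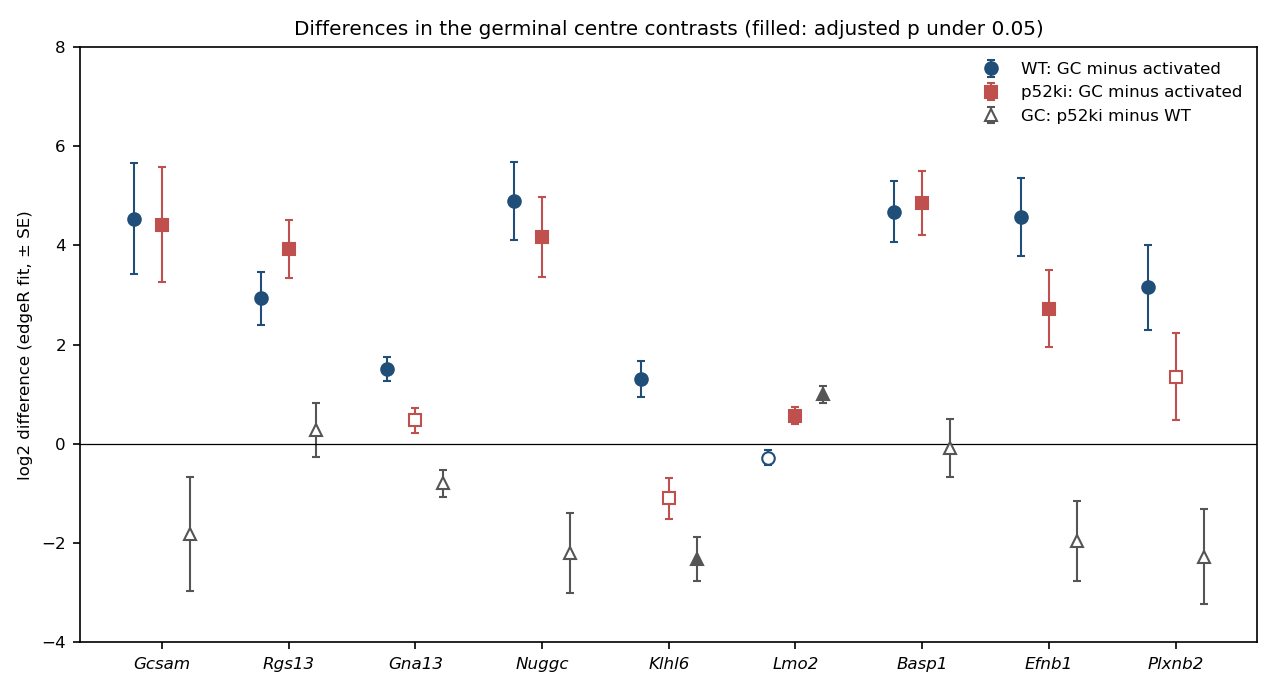
Differences (log2, edgeR fit, ± SE) of 9 genes between GC and activated cells in WT and p52ki and between p52ki and WT GC cells. Filled symbols have an adjusted p under 0.05; the genotype difference is called for Klhl6 and Lmo2, in opposite directions. Gcnt3 is left out because it had no count in the other groups.

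Between p52ki and WT GC cells, 2 of the 9 genes other than Gcnt3 were called, Lmo2 higher and Klhl6 lower, where 3.75% and 12.2% of genes tested were called higher and lower. The median was −1.81 beside −0.32 over all genes. An unadjusted p under 0.05 was reached by 6 of the 9 and by 32.6% of all genes tested. Without WT GC replicate 3 there were 5 calls (Gna13, Nuggc and Efnb1 in addition), all but Lmo2 lower. By DESeq2 there were 5 and by limma voom with quality weights 0. Over all genes the main fit called 2450, DESeq2 3924 and voom 15. Without WT GC replicate 3 the calls over all genes rose as well. These counts among the 9 genes thus moved in the same direction as those over all genes. The genotype comparisons in GC cells share the WT GC libraries with the WT stage comparisons, so a high value there enters both.

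In activated cells none of the genes differed between genotypes (0.013% of genes tested were called), and none had an unadjusted p under 0.05 by edgeR. DESeq2 and limma voom with quality weights also called 0, with 1 and 3 under an unadjusted p of 0.05. The widest gap was in Gcsam, whose activated libraries split without regard to genotype. WT replicates 1 and 4 and p52ki replicate 3 had 18.0 to 39.9 CPM, and WT replicate 3 and p52ki replicates 2 and 5 had 0.623 to 1.75 CPM. Basp1 was highest in p52ki replicate 3 as well, at 15.9 CPM, and Rgs13 in WT replicate 1, at 87.6 CPM. Nuggc was −1.47 in p52ki relative to WT (SE 0.716, adjusted p = 1.00). From naive to activated cells, WT had 2 calls, Rgs13 higher and Lmo2 lower, where 0.254% and 0.0651% of genes tested were called higher and lower. The p52ki mice had 1, Lmo2 lower (0.0326%). With the replicate block the counts were 1 and 0, and over all genes 17 and 2.

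Gcsam, Nuggc and Basp1 were above naive cells in every activated library of both genotypes without a call in edgeR. In WT their differences were 4.26 (SE 1.21, adjusted p = 0.228), 2.65 (SE 0.771, adjusted p = 0.249) and 2.78 (SE 0.623, adjusted p = 0.0893), and DESeq2 called all 3 (adjusted p = 0.0103, 0.0277 and 0.00119). The change from naive to activated cells did not differ between genotypes for any of the genes by edgeR (0% of genes tested), with 0 at an unadjusted p under 0.05; DESeq2 and limma voom also called 0.

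**Figure D4:**
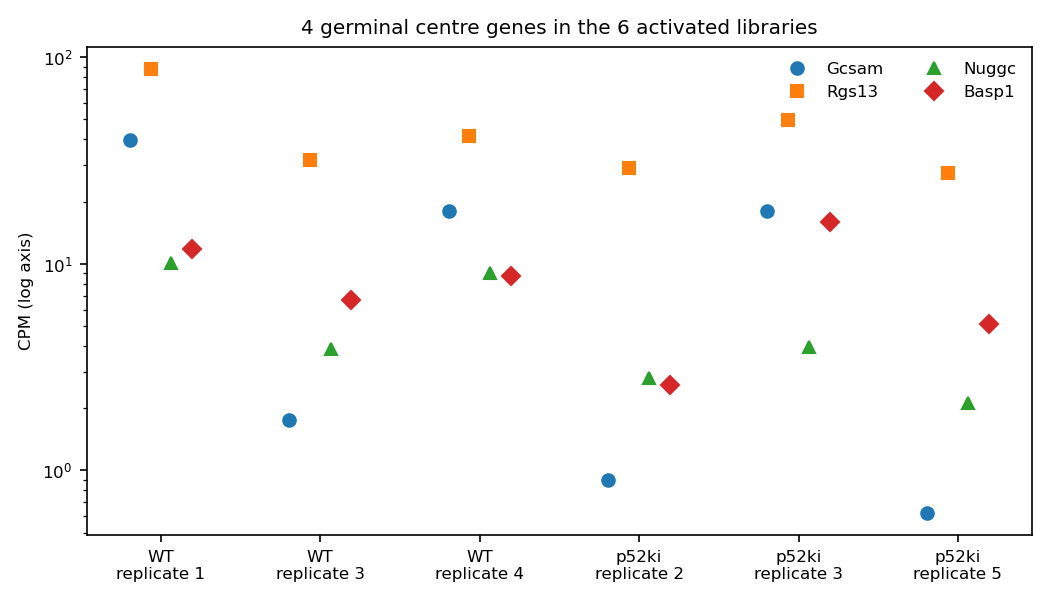
CPM of Gcsam, Rgs13, Nuggc and Basp1 in the 6 activated libraries, on a log axis; each symbol is a gene in a library. Gcsam spans 0.623 to 39.9 CPM and is high in WT replicates 1 and 4 and p52ki replicate 3.

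In naive cells none of the genes was called between genotypes, nor was any other gene (0% of genes tested). No gene of the 10 reached an unadjusted p under 0.05 by edgeR, 1 did by DESeq2 and 0 by limma voom with quality weights, and neither tool called any. Lmo2 was at 352 to 363 CPM in WT and 329 to 352 CPM in p52ki naive cells, a difference of −0.08 (SE 0.155, adjusted p = 1.00). Gcsam was at 0.638 to 1.602 CPM in WT and 0 to 0.349 CPM in p52ki, on 13, 5 and 9 counts in WT and 3, 1 and 0 in p52ki. The genotypes did not overlap, and the difference was not called (−2.80, SE 1.78, adjusted p = 1.00).

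Per kilobase of exon, the order of the genes changed with stage. In WT naive cells Lmo2 led at 165 ± 2.60 CPM per kb (SD, n = 3), before Klhl6 at 71.1 ± 6.30, Gna13 at 18.3 ± 1.48 and Rgs13 at 4.68 ± 1.76, with no overlap between neighbours. The next 5 were between 0.331 and 0.696 CPM per kb, and each overlapped its neighbour. In WT GC cells the order was Rgs13 at 258 ± 83.9, Klhl6 at 147 ± 58.2, Gcsam at 144 ± 30.3, Basp1 at 119 ± 21.5, Nuggc at 84.9 ± 78.0, Lmo2 at 56.3 ± 3.43 and Gna13 at 42.2 ± 11.4, each overlapping the next. Efnb1 at 12.2 ± 11.8 and Plxnb2 at 7.69 ± 4.42 followed, and overlapped each other. In p52ki GC cells Rgs13 was highest at 305 ± 173 (n = 2), followed by Basp1 at 111 ± 4.90 and Lmo2 at 111 ± 6.79, which overlapped, and then by Gcsam at 40.4 ± 3.10 and Klhl6 at 28.3 ± 18.6. In activated cells Lmo2 again led in both genotypes, at 67.2 ± 2.14 CPM per kb in WT and 78.9 ± 7.74 in p52ki (n = 3 each), overlapping Klhl6.

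Over the 17 libraries, Gcsam, Rgs13, Nuggc and Basp1 varied together, with Pearson's r of 0.925 to 0.966 between log2(CPM + 1) values. Lmo2 had a negative r with each of the other 9, from −0.29 with Gna13 to −0.70 with Rgs13, and Klhl6 was close to unrelated to Rgs13 (0.0612) and Basp1 (0.0621). These values describe libraries that share stage and genotype, and carry no test. The genes with the most similar pattern were Mef2b (r = 0.987) and Birc5 for Gcsam, Hmgn3 (0.981) and Pclaf for Rgs13, and Cdca8 (0.986) and Top2a for Nuggc. They were Cdca3 (0.989) and Pclaf for Basp1, Lig1 (0.961) and Idi1 for Efnb1, Eme1 (0.949) and Topbp1 for Gna13, and Cyp51 (0.938) for Plxnb2. For Klhl6 they were Akt1 (0.964) and Ddx1, for Lmo2 Fcer2a (0.968) and Il4i1, and for Gcnt3, on 3 libraries with counts, Rbm8a (0.946) and Anapc15.

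Of 14 B cell receptor signalling genes, the pathway in which GCSAM acts, 1 was higher and 3 lower in WT GC than activated cells, with a median of −0.33. The adaptor Grb2 was higher (0.95, SE 0.255, adjusted p = 0.0220), and the receptor chain Cd79a (−0.95, SE 0.236, adjusted p = 0.0146) was lower. Between genotypes in GC cells Cd79a alone was called, at 4375 ± 289 CPM (n = 2) in p52ki and 2487 ± 521 CPM (n = 3) in WT (0.84, SE 0.258, adjusted p = 0.0397).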

How the data were processed

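RNA of sorted B cells had been amplified from very low input and sequenced as read pairs, per the labels' protocols. The authors deposited raw counts per gene, for which the submitters' processing notes name the build GRCm38 and the tools HISAT2 (2.1.0), SAMtools (1.8) and Subread (1.6.2, with its featureCounts). For the annotation release, strand and multiply mapped reads, the setting is not given in the sources used here. All 55536 identifiers matched GENCODE M21.

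Genes kept by filterByExpr were scaled by TMM and tested in edgeR 4.0.16 (R 4.3.3) with glmQLFit and glmQLFTest, with 1 coefficient per group over all 17 libraries and Benjamini-Hochberg adjustment over the 15352 genes; 11 contrasts were fitted. The fit was tested on simulated data. CPM is the count over the column total. Every one of the 10 genes is named, and from each of 10 pathway lists up to 3 called genes with the smallest p and at least 5 CPM in a group compared. Some genes that these rules select are not reported here. The genes and lists were chosen with earlier results of these data known. A gene's nearest genes are the 2 of highest r among protein-coding genes of at least 10 CPM.

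Alternatives were RLE scaling, no filter, DESeq2 1.42.0, limma 3.58.1 voom with quality weights, the groups alone, removal of immunoglobulin genes, thinning to 4067281 counts, a covariate for detected genes, WT GC replicate 3 alone, replicate blocks and leaving out each library. Replicate numbers come from the sample titles. Deviations of same-numbered naive and activated libraries from their group means had r of 0.52, 0.37 and 0.16 in WT and 0.45, 0.63 and 0.26 in p52ki. Differently numbered ones had r of −0.69 to 0.53, which overlaps these values. For GC libraries with same-numbered libraries r was −0.50 to 0.15. Whether the numbers pair libraries is therefore not settled. Pairs of libraries of a group differed by more than counting error (chi-square per degree of freedom of at least 7.89). This gives no sign of a library deposited more than once but does not show that they came from separate animals. Naive pairs had 7.89 to 31.0 and activated pairs 19.7 to 59.3. The p52ki GC pair had 71.8. WT GC replicate 3 had 116 with replicate 1 and 85.4 with replicate 4, and those had 23.7 between them. The main fit estimates a gene's spread over all groups together, so its GC p-values draw partly on less variable libraries. With the GC libraries fitted alone no gene was called between genotypes.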

Additional observations from a re-analysis of the deposited data

Results flagged for a closer look

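The change from activated to GC cells differed between genotypes by an interaction test for 2 of the genes. Klhl6 differed by −2.41 on the log2 scale (adjusted p = 0.0228, edgeR): its WT change was 1.32 and its p52ki change −1.10. Lmo2 differed by 0.85 (adjusted p = 0.0444): its WT change was −0.28 and its p52ki change 0.57. Both p52ki GC libraries are among the 3 libraries with few detected genes, and with a covariate for detected genes the differences were −1.604 (adjusted p = 0.0176) for Klhl6 and 0.95 (adjusted p = 0.0161) for Lmo2. Neither was called by limma voom (adjusted p = 0.121 and 0.305), with the groups compared alone (0.147 and 0.217) or with the replicate block (0.0897 and 0.139). Groups of 2 or 3 libraries were not tested for outliers.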

How the results depend on the processing

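The counts of called genes among the 10 moved as follows, and the cause was not tested. Counts that use WT GC libraries include Gcnt3 where it was called, also in the 6 calls with the random-effect block below. The filter fixed its direction, so its calls are not results. Without Gcnt3, WT had 8 calls from activated to GC cells, and 5 to 8 with 1 library left out. From naive to WT GC cells 7 were higher and 1 lower without it. Between p52ki and WT GC cells (2 calls) there were 5 by DESeq2, 0 by limma voom with quality weights and 0 with the GC libraries alone. There were 6 with the replicate block as a random effect, and leaving out 1 WT GC library gave 2 to 5. Over all genes the main fit called 2450, DESeq2 3924 and voom 15, and the GC libraries alone gave no call. The random-effect block called fewer than the main fit over all genes, unlike among the 10. From naive to activated WT cells (2) there were 5 by DESeq2, 5 by voom, 4 with the groups alone, 1 without immunoglobulin genes, 1 with the replicate block and 1 with it as a random effect. Leaving out 1 library gave 1 to 2. Over all genes these calls were 49 in the main fit, and 298, 1624, 352, 14, 17 and 64 in order. They were 11 to 52 with 1 library left out. From naive to activated p52ki cells (1) there were 2 with RLE scaling, 4 by DESeq2, 2 by voom, 2 with the groups alone, 0 without immunoglobulin genes, 2 with the detected-gene covariate and 0 with the replicate block; leaving out 1 library gave 0. From activated to GC cells in p52ki (6) there were 3 by voom and 3 with the groups alone, and 5 to 6 with 1 activated library left out. Over all genes the main fit called 3930 and voom 190 in p52ki, and the groups alone also called fewer than the main fit. From activated to GC cells in WT (9) the replicate block gave 6, the groups alone 6, and leaving out 1 library 5 to 8. Over all genes the replicate block and the groups alone also called fewer in WT than the main fit. The genotype difference of the change from activated to GC cells (2) gave 1 without a filter, 0 by voom, 0 with the groups alone and 1 with thinning. It gave 0 with the replicate block (Klhl6 −2.47, adjusted p = 0.0897, and Lmo2 0.83, adjusted p = 0.139) and 1 with it as a random effect. With 1 library other than p52ki GC left out it gave 0 to 3. Over all genes the main fit called 913 and voom 13. Between naive and GC cells (9 in WT and 5 in p52ki) leaving out 1 library gave 8 to 9 and 5 to 6. Between genotypes in naive and in activated cells, and for the difference of the change from naive to activated cells, all alternatives called 0.

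Called differences of single genes in their main fit did not change sign under any alternative run. Differences that were not called and changed sign are these, on the log2 scale. With thinning, Nuggc and Efnb1 between genotypes in naive cells were 0.32 and 0.11, Efnb1 between genotypes in activated cells 0.23, and Efnb1 and Plxnb2 from naive to activated p52ki cells −0.0610 and −0.35. With voom, Klhl6, Efnb1 and Plxnb2 between genotypes in activated cells were −0.0019, 0.25 and 0.38. Against WT GC replicate 3 alone, Nuggc, Basp1 and Efnb1 were 0.20, 0.18 and 0.11. Basp1 between genotypes in GC cells was 0.012 with GC libraries alone, 0.00094 without immunoglobulin genes and 0.018 with the covariate. With the covariate, Klhl6 in p52ki GC was 0.10 against activated and 0.13 against naive cells, Efnb1 from naive to activated WT cells 0.0593 (0.0890 with the random-effect block) and the Nuggc difference of the GC change 1.19. The difference of the change from naive to activated cells was −1.15 for Gcsam by voom, and for Rgs13 0.0783 by voom, 0.0046 with the replicate block and 0.23 with it as a random effect. The Gcsam difference of the GC change was 1.36 by voom, 1.96 with the replicate block and 0.30 with it as a random effect.

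With 1 library left out, uncalled differences that changed sign ranged as follows. Between genotypes, Basp1 ran from −0.30 to 0.59 in naive, −1.40 to 0.19 in activated and −0.12 to 0.0343 in GC cells, Efnb1 from −0.35 to 0.20 and Klhl6 from −0.0648 to 0.24 in activated cells, and Rgs13 from −0.58 to 0.80 in GC cells. From naive to activated WT cells Efnb1 ran from −0.42 to 0.29. In p52ki GC cells Gna13 ran from −0.0193 to 0.82 against activated and −0.17 to 0.66 against naive cells, and Plxnb2 from −1.74 to 2.24 and −1.51 to 2.47. The genotype difference of the change from naive to activated cells ran from −1.60 to 0.0467 for Basp1, −0.0597 to 0.70 for Efnb1, −2.09 to 2.32 for Gcsam, −0.0041 to 0.22 for Gna13 and −0.47 to 0.59 for Rgs13. That of the GC change ran from −0.20 to 1.39 for Basp1, −1.14 to 3.16 for Gcsam and −1.30 to 0.19 for Nuggc.

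The p52ki GC group has 2 libraries, both with few detected genes, and leaving out either leaves 1 that is assumed to vary like the other groups. Depth limits Gcnt3 and, in naive cells, Gcsam, Nuggc, Basp1, Efnb1 and Plxnb2, whose counts there were low. Genotype and the order of library numbers cannot be told apart.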

Other observations

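In p52ki cells the lists around these genes were counted between activated and GC cells as well. Kelch-like genes and Cul3 had 0 of 23 higher and 7 lower, with a median of −1.63 beside −0.41 over all genes tested, and O-glycan enzymes had 0 of 15 higher and 6 lower, with a median of −1.31. Among all genes tested 6.34% were higher and 19.3% lower in this comparison. Genes of the LMO2 complex other than Lmo2 had 3 of 13 higher and 0 lower, with a median of 0.40, and heterotrimeric G proteins 3 of 19 higher and 2 lower, with a median of 0.50. G12/13 signalling had 2 of 9 higher and 1 lower. Plexins and semaphorins other than Plxnb2 had 0 of 12 higher and 5 lower in p52ki. As many were lower in WT, where 7.75% of all genes tested were called lower.

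The count of Nuggc per count of Rgs13 was 1.05, 0.168 and 0.356 in WT GC replicates 1, 3 and 4 and 0.236 and 0.0467 in p52ki GC replicates 2 and 5, so that the genotypes overlapped in this ratio. In naive and activated libraries it was 0.0773 to 0.25.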
